A study of Rattus norvegicus with 24 samples.

Results

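The genes described here encode the enzymes and carriers of glycolysis together with the oxygen-sensing factors and their best-known targets: 34 listed symbols of the 36856 genes in each deposited table. All 34 were found in all 3 tables. They comprise 19 enzymes from hexokinase to lactate dehydrogenase, 4 glucose and lactate carriers (Slc2a1, Slc2a4, Slc16a1, Slc16a3), 3 regulatory enzymes (Pdk1, Pfkfb2, Pfkfb3), the factors Hif1a and Epas1, the hydroxylases Egln1 and Egln3, and the targets Bnip3, Adm, P4ha1 and Ankrd37. The members are a list of gene symbols.

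The study sequenced messenger RNA from 24 Sprague-Dawley rat samples in 6 groups of 4 rats. The label protocols give female rats of 120 to 200 g, with no age. Kidney inner medulla (the papilla of 1 kidney) came from 4 groups: a control group and an aldosterone group of 1 experiment, and a high-salt and a low-salt group of another; pieces of heart ventricle came from a high-salt and a low-salt group. All rats ate a synthetic diet for 7 days. Its Na content was 0.4% in the control, aldosterone and high-salt groups, so that "high salt" is the diet which the protocol calls control, and 0.01 to 0.02% in the low-salt groups. The aldosterone group also carried an osmotic minipump that delivered 12 µg per day of this hormone, which makes the distal nephron retain Na. Whether kidney and heart samples came from the same rats is not given in the sources used here.

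Glycolysis splits glucose into pyruvate and yields ATP without oxygen, and lactate dehydrogenase then regenerates the NAD it consumed. The inner medulla has a poor oxygen supply and relies on glycolysis, whereas the heart burns mainly fatty acids and lactate in its mitochondria. When oxygen falls, the prolyl hydroxylases of the Egln family stop marking the factors HIF-1α (Hif1a) and HIF-2α (Epas1) for destruction, and these factors then switch on many glycolytic genes along with Bnip3, Egln3, Adm, P4ha1 and Ankrd37. HIF activity is set mainly by protein stability, which RNA levels do not show.

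Library totals ran from 24299144 to 38318489 counts, so that 1 CPM, a count scaled to its library's size, was at least 24 counts. Levels below are CPM scaled within each table by edgeR's trimmed mean of M values (TMM), and levels of different genes are not compared because transcript lengths were not used. A gene counts as changed at a Benjamini-Hochberg adjusted p under 0.05 in edgeR's quasi-likelihood test over all genes tested. The labels call all rats female, but the 16 libraries of the low-salt experiment held Xist, the RNA of the inactive X chromosome, at 0.0918 CPM or less and Y-linked transcripts summing to 148 to 276 CPM. The 8 aldosterone-experiment libraries held Xist at 234.4 to 451.1 CPM and Y-linked transcripts at 0.314 CPM or less. Sex and experiment therefore cannot be told apart where aldosterone is set beside low salt, while each of the other comparisons lies within libraries of 1 pattern. Kidney markers were found in heart libraries: proximal tubule markers summed to 22.3 to 85.6 CPM in the 4 heart libraries of batch 1 and to 0.321 to 1.12 CPM in the 4 of batch 2, with the highest sum in low-salt replicate 2. Heart high-salt replicate 2 also held 41.2 CPM of principal cell markers and 102 CPM of thick ascending limb markers, against at most 3.67 and 8.3 CPM in the other heart libraries. In bulk tissue, fewer cells of a type and less RNA per cell cannot be told apart.

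The DNA just before the transcription start shows where hypoxia-inducible factors could bind, since they recognise a short core. The windows of 250 bases before the RefSeq start (build GRCr8) were searched on both strands for ACGTG and GCGTG, and 32 of the 34 members had a window. At least 1 core lay in 21 of these 32 genes, or 65.6%, against 39.6% of all 27457 genes with a window. Counted per window, the share was 61.1% of 36 against 36.7% of 33469. These backgrounds were not matched to the members in base composition or expression. 3 members, chosen after their values were seen, are printed: the enolase Eno1, the member called in a treatment comparison, Bnip3, the one called in the comparison of responses between tissues, and Egln3, as a HIF-induced hydroxylase without a core. Each runs 5′ to 3′ in the direction of the gene, ends at the base before the start, and has the cores in capitals, read on either strand (CACGT and CACGC are the reverse complements).
Eno1, first start, chr5:166002617-166002866, plus strand: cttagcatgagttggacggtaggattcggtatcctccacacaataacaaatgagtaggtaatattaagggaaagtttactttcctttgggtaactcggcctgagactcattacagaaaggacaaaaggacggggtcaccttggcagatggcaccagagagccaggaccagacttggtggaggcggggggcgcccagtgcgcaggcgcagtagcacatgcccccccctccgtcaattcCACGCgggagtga
Eno1, second start, chr5:166003111-166003360, plus strand: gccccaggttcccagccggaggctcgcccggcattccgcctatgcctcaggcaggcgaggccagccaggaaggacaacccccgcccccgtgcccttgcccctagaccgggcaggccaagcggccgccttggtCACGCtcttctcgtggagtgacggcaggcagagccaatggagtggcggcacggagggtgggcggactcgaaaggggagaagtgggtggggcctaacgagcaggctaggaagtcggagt
Bnip3, chr1:203154963-203155212, minus strand: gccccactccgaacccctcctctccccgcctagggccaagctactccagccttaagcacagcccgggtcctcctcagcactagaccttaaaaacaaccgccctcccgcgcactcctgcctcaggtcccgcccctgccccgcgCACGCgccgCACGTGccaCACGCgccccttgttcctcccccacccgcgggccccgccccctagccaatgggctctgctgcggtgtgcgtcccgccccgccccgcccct
Egln3, chr6:77411016-77411265, minus strand: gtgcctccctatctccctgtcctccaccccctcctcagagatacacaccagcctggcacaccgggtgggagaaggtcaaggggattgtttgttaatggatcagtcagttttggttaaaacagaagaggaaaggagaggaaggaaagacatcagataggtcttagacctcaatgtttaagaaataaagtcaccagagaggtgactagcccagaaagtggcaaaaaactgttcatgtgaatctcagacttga
Each Eno1 window held 1 core, starting 13 and 118 bases before the respective start (positions -13 and -118). Bnip3 held 3 separate sites whose cores start between positions -108 and -90, the middle of which, CACGTG, reads as a core on both strands. Egln3 held none, which says only that these letters are absent from this window. A match is a description of sequence and not evidence of binding.

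In the inner medulla, Eno1, the main enolase of most tissues, fell on low salt. Most other members had a lower mean on low salt without passing the test. Of 18449 genes tested, 253 fell (1.37%) and 201 rose (1.09%). Among the 33 members tested, 1 fell and 0 rose; Pgam2 had 0 to 5 counts per kidney library and was not tested. The log2 fold change was negative for 27 of 33 members (81.8%, against 50.7% of all genes) and positive for 6 (background 49.3%), and the members' median was -0.20 against 0.00 for all genes (-0.003 unrounded). At an unadjusted p under 0.05, 10 members were lower (30.3%, background 10.6%) and 1 was higher (3.03%, background 8.98%). In 4 members (12.1%, background 6.62%) every low-salt library lay below every high-salt library: Aldoa, Gapdh, Eno1 and Bnip3. In 0 members (background 4.83%) did every low-salt library lie above.

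Eno1 stood at 1697, 1967, 1549 and 1529 CPM in the high-salt libraries and at 1066, 1305, 1170 and 1202 CPM in the low-salt libraries. The groups did not overlap, and high-salt replicate 2 was the highest. The log2 fold change was -0.50 ± 0.10 (SE, n = 4 rats a group); the level fell by 29.4%, with an edgeR adjusted p of 0.0486. The call is close to the threshold: it held in 4 of 17 alternatives, whose adjusted p ran from 6.87e-05 with DESeq2 to 0.257, and was lost, among others, on leaving out any of the 8 libraries, with DESeq2's size factors, without the batch term and in each batch alone. Its direction held in all 17 (log2 fold change -0.63 to -0.37).

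Aldoa, the aldolase of muscle and most other tissues, stood at 1850, 2075, 1822 and 1896 CPM on high salt and at 1560, 1495, 1449 and 1657 CPM on low salt. Its groups did not overlap either, but its log2 fold change of -0.31 ± 0.09 had an edgeR adjusted p of 0.097. Bnip3, a mitochondrial protein that promotes mitophagy, stood at 132, 204, 114 and 88.5 CPM on high salt and at 73.6, 83.9, 70.2 and 87.4 CPM on low salt. Most of the spread lay in the high-salt group, whose lowest library was almost level with the highest low-salt library. Its log2 fold change was -0.73 ± 0.20 (edgeR adjusted p = 0.093), and -1.09 within batch 1 against -0.36 within batch 2.

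Egln3, a prolyl hydroxylase that is itself induced by HIF, stood at 63.9, 119, 78.2 and 55.2 CPM on high salt and at 41.7, 59, 47.8 and 38.1 CPM on low salt. The ranges overlapped through high-salt replicate 4 and low-salt replicate 2. Its log2 fold change of -0.75 ± 0.22 missed the threshold (edgeR adjusted p = 0.11). The most negative value belonged to Hk2, the inducible hexokinase, at -0.84 ± 0.31 (edgeR adjusted p = 0.18). Pfkm, the muscle subunit of phosphofructokinase, had the smallest p among positive members (log2 fold change 0.21 ± 0.06, edgeR adjusted p = 0.119), at 128, 123, 114 and 119 CPM on high salt and 157, 139, 125 and 138 CPM on low salt. Pfkfb2, which makes the phosphofructokinase activator fructose 2,6-bisphosphate, had 0.14 ± 0.06 (edgeR adjusted p = 0.277).

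None of the oxygen-sensing members passed the test. Hif1a stood between 192 and 268 CPM on high salt and between 213 and 243 CPM on low salt, a log2 fold change of -0.05 ± 0.10. Epas1 was at 44.6 to 54.6 and 47 to 64.9 CPM (0.20 ± 0.09, edgeR adjusted p = 0.26), and Egln1, the main hydroxylase under normal oxygen, at 117 to 153 and 109 to 130 CPM (-0.10 ± 0.10). For Hif1a and Egln1 the sign depended on the libraries used.

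The whole set leaned on 1 library. High-salt replicate 2 had a median deviation of the members of 0.28 log2 above the high-salt mean and 30 of 33 members above it, whereas the other high-salt libraries ranged from -0.09 to 0.00. Without that library the members' median was -0.07, with 21 of 33 negative, and within batch 1 and batch 2 it was -0.37 and -0.05. DESeq2 called 8 members: 7 lower (21.2%, against 4.73% of all genes), which were Aldoa, Bnip3, Egln3, Eno1, Gapdh, Hk2 and Pkm, and 1 higher, Pfkm (background 4.46%). Hemoglobin and other erythroid markers summed to 2130 to 4960 CPM on low salt and 355 to 4150 CPM on high salt, with all 5 positive in log2 fold change, and proximal tubule markers, at 121 to 502 against 66.8 to 375 CPM, had all 6 positive. Principal cell markers summed to 9250 to 13200 CPM on low salt and 11600 to 14200 CPM on high salt, with 1 of 6, the urea transporter Slc14a2, called lower. Endothelial markers summed to 218 to 366 and 307 to 433 CPM, with 1 of 5, Emcn, called lower, and smooth muscle markers to 24.2 to 37.7 and 36.8 to 43.7 CPM. The part of these cell types in the members' values was not tested.

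**Figure D1:**
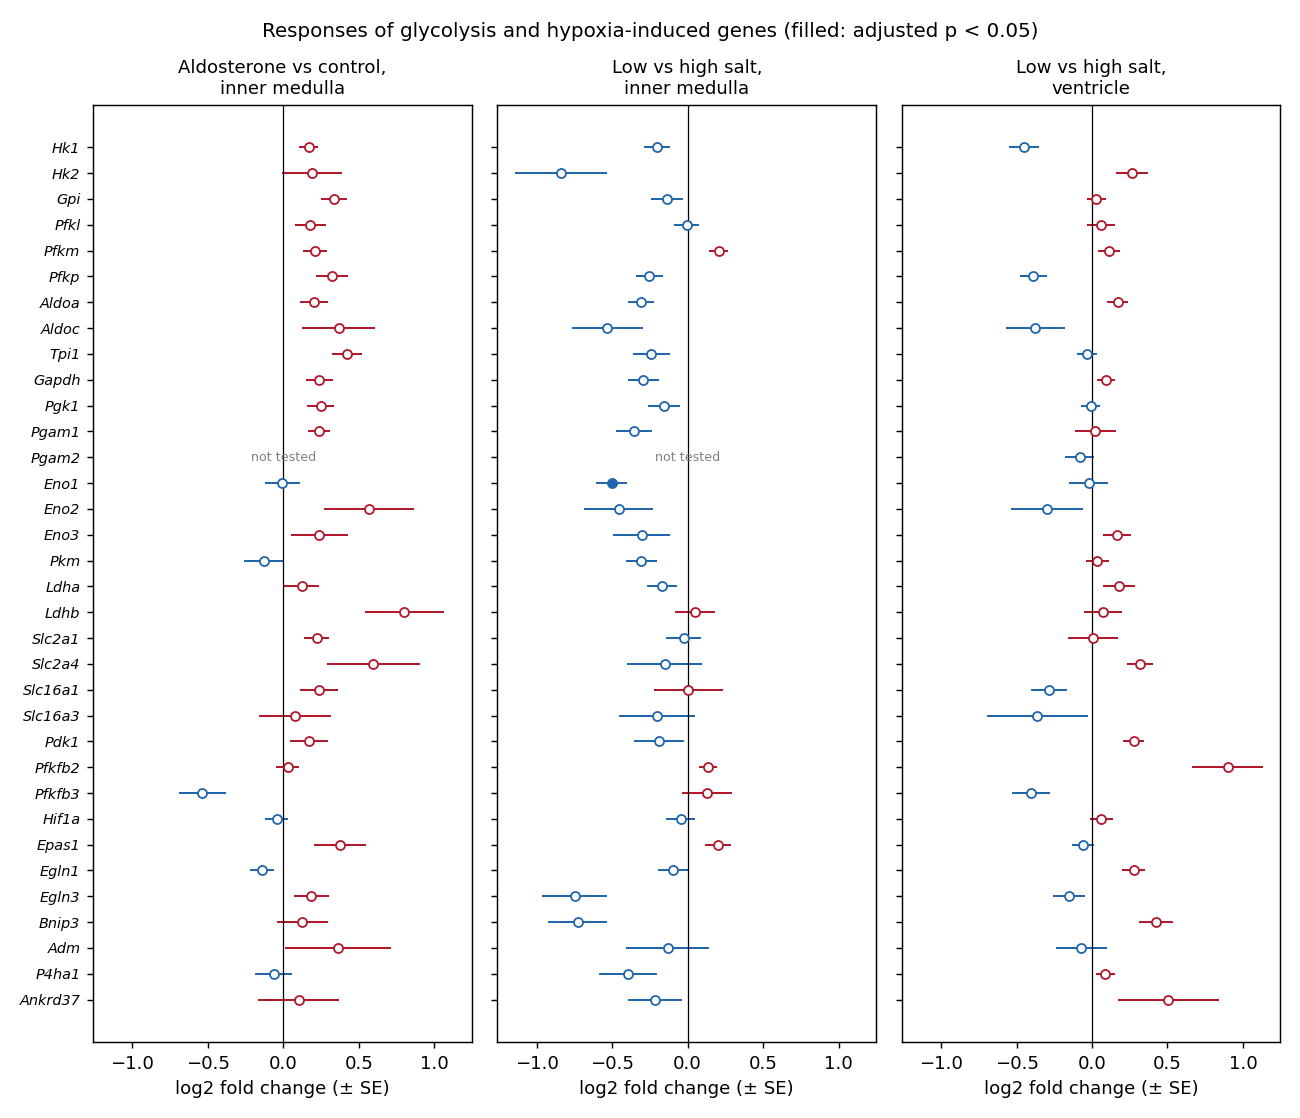
Log2 fold change with its SE for each member (rows) in the 3 treatment comparisons (panels), blue below 0 and red above; filled symbols passed an adjusted p under 0.05. Only Eno1 in the low-salt inner medulla is filled, and 27 of 33 members lie below 0 there against 27 of 33 above 0 under aldosterone.

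**Figure D2:**
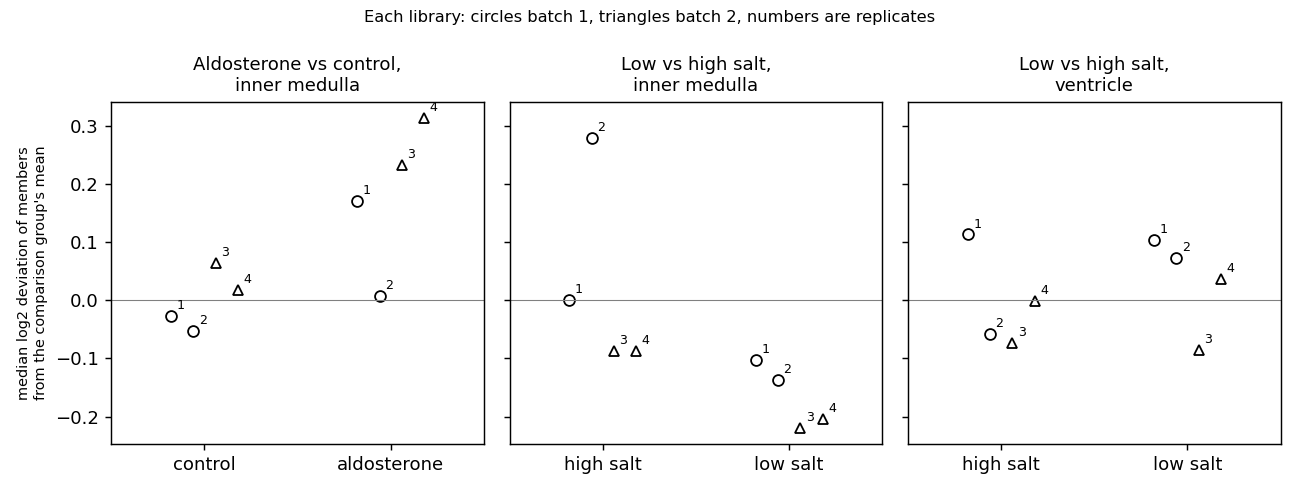
Median log2 deviation of the members from the mean of the control or high-salt group (vertical axis), for each library of the 3 comparisons; circles are batch 1, triangles batch 2 and numbers the replicates. High-salt replicate 2 of the inner medulla stands at 0.28, and the 4 low-salt libraries lie between -0.22 and -0.10.

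Of 25 other known HIF targets tested, 20 were negative in log2 fold change (80.0%, against 50.7% of all genes), with a median of -0.27, and 1 fell (4.0%, against 1.37%). That gene was Mif, a cytokine (log2 fold change -0.39 ± 0.08, edgeR adjusted p = 0.0489). Of 12 other glycolysis genes tested, 7 were negative and none passed the test (median -0.07). Without high-salt replicate 2, an alternative added after the data were seen, 18 of the 25 targets were negative (median -0.18) and none passed, and the median of the other glycolysis genes was 0.04. None of 9 other regulators of the HIF pathway passed it (median -0.06). Of the remaining member targets, P4ha1, a collagen prolyl hydroxylase, had a log2 fold change of -0.40 ± 0.20, and Ankrd37 and the vasodilator peptide gene Adm, both at 5.04 CPM or less in every library of this experiment, had -0.22 ± 0.18 and -0.13 ± 0.27.

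Under aldosterone most members had a higher mean than in the controls, and none passed the test. edgeR called 0 of 17671 genes (0%). Without adjustment, a p under 0.05 was reached by 1096 genes that were higher (6.2%) and 654 that were lower (3.7%), while DESeq2 called 373. Of 33 members tested, 27 had a positive log2 fold change (81.8%, against 50.9% of all genes) and 6 a negative one (background 49.1%). The median was 0.20 against 0.00 for all genes (0.004 unrounded). By library, the members' median deviation from the control mean was 0.17, 0.01, 0.23 and 0.31 log2 in aldosterone replicates 1 to 4. Replicate 2 had 17 members above that mean and 16 below it. At an unadjusted p under 0.05, 10 members were higher (30.3%) and 1 was lower (3.03%). In 4 members (12.1%, background 3.15%) every aldosterone library lay above every control: Hk1, Pfkm, Tpi1 and Pgam1. In 0 members (background 1.95%) did every aldosterone library lie below.

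Tpi1, triose phosphate isomerase, stood at 433, 390, 509 and 380 CPM in the controls and at 530, 527, 634 and 610 CPM with aldosterone. All 4 aldosterone libraries exceeded the highest control. The log2 fold change was 0.42 ± 0.10 (edgeR adjusted p = 0.249), with 0.37 within batch 1 and 0.49 within batch 2. Gpi, the isomerase that follows hexokinase, stood at 287, 267, 313 and 338 CPM and at 345, 325, 382 and 476 CPM. The lowest aldosterone value lay within the control range, and the log2 fold change was 0.34 ± 0.09 (edgeR adjusted p = 0.268). Pgam1, the phosphoglycerate mutase of most tissues, stood at 391, 412, 443 and 394 CPM and at 457, 484, 465 and 523 CPM, without overlap (0.24 ± 0.07, edgeR adjusted p = 0.354).

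Pfkfb3, the second enzyme that makes fructose 2,6-bisphosphate, went the other way. It stood at 838, 570, 700 and 1037 CPM in the controls and at 528, 447, 581 and 615 CPM with aldosterone. The ranges overlapped because control replicate 2 was low. Its log2 fold change was -0.54 ± 0.16 (edgeR adjusted p = 0.335). Egln1 and Pkm, the pyruvate kinase of most tissues, were the next negative members by p, at -0.14 ± 0.08 and -0.13 ± 0.13, neither passing.

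Epas1 had a log2 fold change of 0.38 ± 0.17, Egln3 of 0.19 ± 0.12 and Hif1a of -0.04 ± 0.08 under aldosterone, none past the threshold. The largest positive value in the set was that of Ldhb, the heart-type lactate dehydrogenase subunit (0.80 ± 0.26, edgeR adjusted p = 0.377). DESeq2 called 3 members, Gpi and Tpi1 higher (6.06%, background 1.69%) and Pfkfb3 lower (3.03%, background 0.419%). Leukocyte markers summed to 112 to 176 CPM with aldosterone and 52.4 to 94.1 CPM in controls, without overlap and with all 6 positive in log2 fold change. Thick ascending limb markers had all 5 positive, at 2310 to 4760 against 1090 to 2700 CPM. All 4 fibroblast markers tested were positive (median 0.98, 112 to 353 against 85.4 to 272 CPM), as were all 5 erythroid markers (median 0.82, 1490 to 3740 against 982 to 1860 CPM) and all 5 each for urothelium and intercalated cells. Principal cell markers were divided, with 2 positive and 4 negative (median -0.14, 10500 to 15000 against 12700 to 14700 CPM). Proximal tubule markers had 3 positive and 3 negative. Their part in the members' values was not tested.

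**Figure D3:**
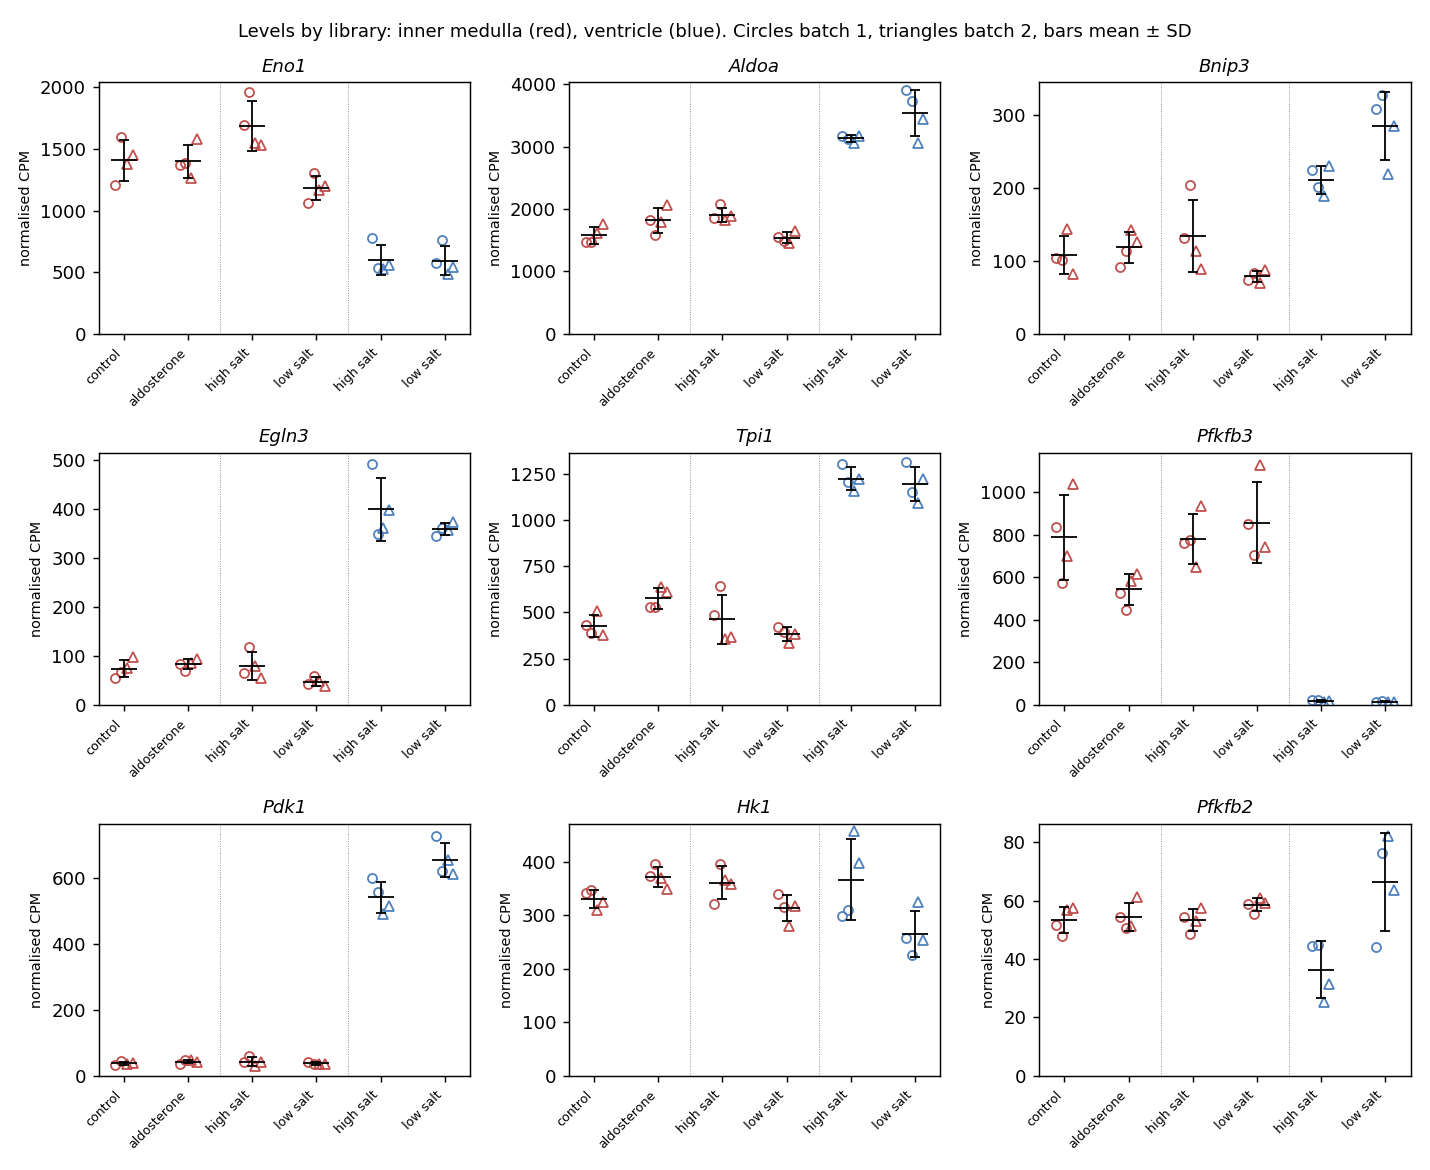
Normalised CPM (vertical axis from 0) of 9 members in each library of the 6 groups, with circles for batch 1, triangles for batch 2 and bars for the group mean ± SD. The low-salt inner medulla libraries of Eno1, Aldoa and Bnip3 all lie below their high-salt libraries, all aldosterone libraries of Tpi1 lie above the controls, and all low-salt ventricle libraries of Pdk1 lie above high salt.

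Aldosterone and low salt were also set against each other in the inner medulla. The difference of the 2 responses was positive for 28 of 33 members (background 49.1%) and negative for 5 (background 50.9%; median log2 difference 0.39, all genes -0.01), and 0 members passed the test, with 5 of 18938 genes higher (0.0264%) and 5 lower (0.0264%) called. At an unadjusted p under 0.05, 15 members were higher (background 6.75%) and 1 lower (background 6.37%). The smallest adjusted p belonged to Aldoa (0.50 ± 0.12, edgeR adjusted p = 0.0917); Tpi1 followed at 0.65 ± 0.16 (edgeR adjusted p = 0.103). DESeq2 called 7 members higher (21.2%, background 1.96%): Aldoa, Egln3, Gapdh, Hk1, Pfkp, Pgam1 and Tpi1. The low-salt part of this difference includes kidney high-salt replicate 2, whose members had a median deviation of 0.28 log2 above the high-salt mean. Sex pattern, experiment and treatment cannot be told apart in this comparison.

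In the ventricle no member passed the test on low salt, and the set was divided. Of 15473 genes tested, 2 rose (0.0129%) and 6 fell (0.0388%); with the replicate number as a block, 0 genes passed. Among 34 members, 20 were positive (58.8%, background 48.2%) and 14 negative (background 51.8%) in log2 fold change, with a median of 0.03. At an unadjusted p under 0.05, 7 members were higher (20.6%, background 5.68%) and 4 lower (11.8%, background 4.92%). In 1 member, Pdk1 (background 2.69%), every low-salt library lay above high salt, and in 1, the brain-type aldolase Aldoc (background 2.04%), every one lay below. The higher members included the regulators Pdk1 and Pfkfb2, and the lower ones included Hk1, Pfkp and the regulator Pfkfb3.

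Pdk1, the kinase that shuts pyruvate out of the mitochondrial dehydrogenase, stood at 599, 558, 490 and 515 CPM on high salt and at 727, 621, 653 and 612 CPM on low salt. Its groups did not overlap, and its log2 fold change was 0.28 ± 0.07 (edgeR adjusted p = 0.253). Pfkfb2 stood at 44.3, 44.8, 25.1 and 31.3 CPM on high salt and at 44.1, 76.4, 82 and 63.5 CPM on low salt. Low-salt replicate 1 lay in the high-salt range. Its log2 fold change of 0.90 ± 0.24 was the largest of the members (edgeR adjusted p = 0.268), with 0.43 within batch 1 and 1.36 within batch 2. Bnip3 stood at 224, 201, 189 and 230.6 CPM and at 308, 327, 220 and 286 CPM (0.42 ± 0.11, edgeR adjusted p = 0.271), which did not pass.

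Hk1, the hexokinase of most tissues, stood at 299, 310, 458 and 398 CPM on high salt and at 258, 225, 325 and 253 CPM on low salt. Batch 2 was higher than batch 1 in the high-salt group, and low-salt replicate 3 overlapped it. Its log2 fold change was -0.45 ± 0.10 (edgeR adjusted p = 0.216). Pfkp, the platelet-type phosphofructokinase, was at 55.3, 45.1, 58.9 and 70.4 CPM and at 40.1, 37, 52.1 and 46.1 CPM (-0.39 ± 0.09, edgeR adjusted p = 0.226). Pfkfb3 followed at -0.41 ± 0.13 (edgeR adjusted p = 0.31).

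Slc2a4, the insulin-responsive glucose carrier GLUT4, had a log2 fold change of 0.32 ± 0.09 and Egln1 of 0.28 ± 0.08, both with an edgeR adjusted p of 0.271. Hif1a (0.06 ± 0.08), Epas1 (-0.06 ± 0.07) and Egln3 (-0.16 ± 0.11) did not pass. DESeq2 called 7 members: Bnip3, Egln1, Pdk1, Pfkfb2 and Slc2a4 higher (14.7%, background 1.22%) and Hk1 and Pfkp lower (5.88%, background 0.737%). The members' median was -0.01 without high-salt replicate 2, 0.04 without low-salt replicate 2 and 0.05 in batch 2 alone, whose libraries held 1.12 CPM or less of proximal tubule markers; neither leave-out nor batch 2 alone called a member. Erythroid markers summed to 17600 to 55900 CPM on low salt and 2220 to 33600 CPM on high salt, and atrial markers to 31.4 to 206 against 107 to 2530 CPM. All 5 fibroblast markers were negative in log2 fold change (median -0.32, 1070 to 2250 against 1790 to 2400 CPM). Cardiomyocyte markers had 4 positive and 3 negative. Their part in these values was not tested.

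The response to low salt was compared between tissues with an interaction term over 16 libraries. Bnip3 differed: its log2 fold change was lower in the inner medulla than in the ventricle (log2 difference -1.15 ± 0.25, edgeR adjusted p = 0.0497), with -0.73 in the kidney and 0.42 in the heart. It was the only member called, beside 88 of 19408 genes lower (0.453%) and 73 higher (0.376%). The call did not hold with upper quartile scaling (adjusted p = 0.0553), without the batch term (0.0869), with the replicate block (0.098) or in 13 of 16 leave-outs; it held without heart low-salt replicate 3, kidney high-salt replicate 4 or kidney low-salt replicate 4. Its direction held in all 23 alternatives (-1.29 to -0.94). With the block, 16 genes were called in place of 161. In this test the block joins low-salt and high-salt libraries of the same number within a tissue. A link between kidney and heart libraries of the same number was not modelled in it. The members' median difference was -0.27, with 27 of 34 negative (background 47.2%) and 7 positive (background 52.8%), and it was -0.15 without kidney high-salt replicate 2. At an unadjusted p under 0.05, 2 members were higher (background 7.09%) and 12 lower (background 7.33%). Mif also passed (-0.52 ± 0.11, edgeR adjusted p = 0.0497).

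Many more members differed between the tissues than between treatments. On high salt 7462 of 18175 genes were higher in the inner medulla (41.1%) and 6671 lower (36.7%), and of the 34 members 8 were higher and 22 lower. The members' median log2 difference, inner medulla over ventricle, was -1.45 against 0.13 for all genes. This depends on scaling (TMM factors 0.723 to 0.751 in heart against 1.328 to 1.387 in kidney). With library totals alone the median of all genes moved to 1.02, the split of calls to 11777 higher and 3737 lower, the members to 13 higher and 17 lower, and their median to -0.56. Tissue, table and cell makeup coincide, so that cardiomyocyte markers, at 103000 to 121000 CPM in heart and 0.968 to 2.84 CPM in kidney, cannot be told apart from a difference per cell.

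In the main fit and all 9 settings other than the leave-outs and the replicate block, 6 members were called higher in the inner medulla (Pfkl, Slc2a1, Slc16a3, Pfkfb3, Hif1a, P4ha1). In the same settings 17 were called higher in the ventricle (Hk2, Gpi, Pfkm, Aldoa, Tpi1, Gapdh, Pgk1, Pgam2, Eno3, Ldhb, Slc2a4, Slc16a1, Pdk1, Epas1, Egln1, Egln3, Bnip3). The share of all genes called in every one of these settings was not computed. The setting with the kidney controls of the aldosterone experiment sets libraries of different sex patterns side by side. The other 11 changed their call or direction with the setting or were not called. On a scale shared by both tissues, Pfkfb3 stood at 556, 567, 467 and 689 CPM in the inner medulla and at 29.5, 28.6, 18.7 and 26.6 CPM in the ventricle, a log2 difference of 4.46 ± 0.19 (edgeR adjusted p = 2.56e-08). Slc16a3, the carrier MCT4 that exports lactate, stood at 36.5, 76.3, 20.2 and 31.7 against 7.59, 4.42, 2.11 and 3.06 CPM (3.27 ± 0.50, edgeR adjusted p = 0.00021). Slc2a1, the ubiquitous glucose carrier GLUT1, stood at 121, 172, 161 and 145 against 38.8, 25.8, 25.4 and 22.5 CPM, a log2 difference of 2.41 ± 0.19.

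3 further members lay far higher in the ventricle. The muscle enolase Eno3 stood at 4.68, 5.09, 4.08 and 3.17 CPM in the inner medulla and at 674, 571, 573 and 474 CPM in the ventricle (-7.07 ± 0.20, edgeR adjusted p = 2.72e-09). Slc16a1, the carrier MCT1 that takes up lactate, stood at 13.4, 19.3, 9.39 and 13.1 against 677, 605, 935 and 1010 CPM (-5.87 ± 0.28, edgeR adjusted p = 7.11e-08). Slc2a4 stood at 7.2, 14.1, 9.86 and 7.9 against 652, 522, 509 and 517 CPM (-5.81 ± 0.24, edgeR adjusted p = 2.64e-08). In none of these did the tissues overlap. By the test, 64.7% of the 34 members were lower in the inner medulla, against 36.7% of all genes. The share called higher was 23.5%, against 41.1% of all genes. Of the members whose call or direction moved with the setting, Pgam1 had a log2 difference of -0.34 with TMM and 0.56 with library totals, and Pfkfb2 had -0.36 and 0.53.

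The 2 HIF subunits went opposite ways. Hif1a stood at 140, 162, 192 and 198 CPM in the inner medulla and at 75, 76.3, 71.3 and 72.7 CPM in the ventricle (1.23 ± 0.11, edgeR adjusted p = 5.86e-06). Epas1 stood at 36.1, 40, 32.2 and 37.6 against 388, 378, 489 and 443 CPM (-3.54 ± 0.12, edgeR adjusted p = 5.95e-09). Egln3 and Egln1 were both higher in heart, with log2 differences of inner medulla over ventricle of -3.25 ± 0.25 and -1.59 ± 0.10.

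**Figure D4:**
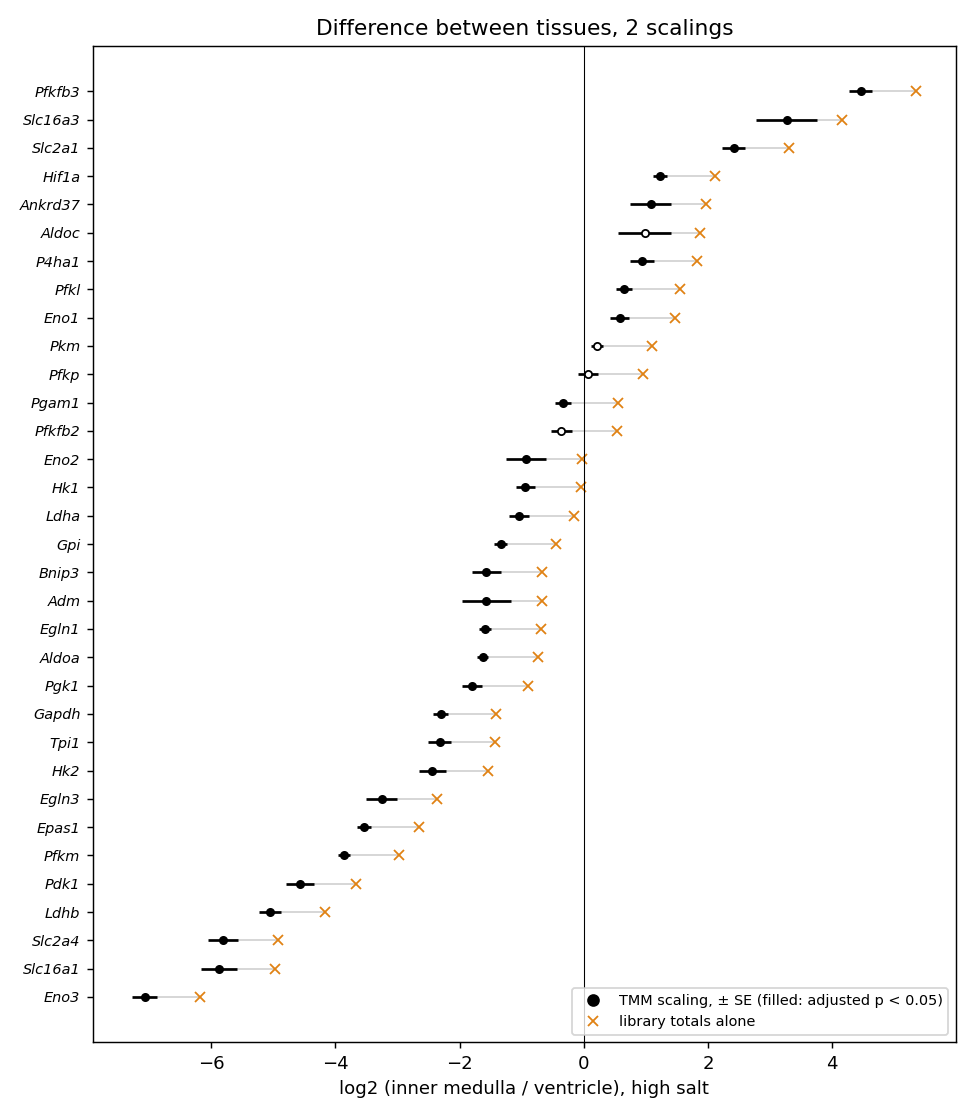
Log2 difference of inner medulla over ventricle on high salt for 33 members (Pgam2 is left out because the kidney had 5 counts), with TMM scaling as circles with SE and library totals alone as crosses. Pfkfb3 lies highest and Eno3 lowest, and library totals move every member to the right.

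Ratios of related genes within a library need no scaling between tissues. They are descriptions of all 16 kidney and 8 heart libraries, each a ratio of counts that also depends on transcript length. Muscle enolase Eno3 was 0.002 to 0.00486 of Eno1 in every kidney library and 0.591 to 0.964 in every heart library. Muscle phosphoglycerate mutase Pgam2 was 0 to 0.000388 of Pgam1 in kidney and 1.81 to 2.9 in heart. On high salt Pgam2 had 83373 counts over the 4 heart libraries and 5 over the 4 kidney libraries, a ratio per library total of 20800 (95% interval 8900 to 63900, counting error only).

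The lactate dehydrogenase subunits gave a ratio Ldhb/Ldha of 0.124 to 0.472 in kidney and 1.98 to 3.6 in heart. Glucose carriers gave Slc2a4/Slc2a1 of 0.0494 to 0.203 and 16.8 to 30.5. Lactate carriers gave Slc16a1/Slc16a3 of 0.252 to 0.783 and 89.4 to 441. In the ranges named so far, no kidney library reached the lowest heart library.

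Pfkm/Pfkl, muscle over liver phosphofructokinase, was 0.53 to 0.965 in kidney and 12.1 to 16.8 in heart, and Hk2/Hk1 was 0.0198 to 0.0877 against 0.135 to 0.427. Aldoc/Aldoa, the brain-type over the muscle-type aldolase, ran the other way at 0.00136 to 0.00729 in kidney and 0.000336 to 0.000631 in heart. Pfkp/Pfkl (0.41 to 1.19 and 0.515 to 1.27) and Eno2/Eno1 (0.00184 to 0.00641 and 0.00538 to 0.017) overlapped between tissues. Within the ventricle, Hk2/Hk1 was 0.135 to 0.351 on high salt and 0.263 to 0.427 on low salt, with overlap.

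**Figure D5:**
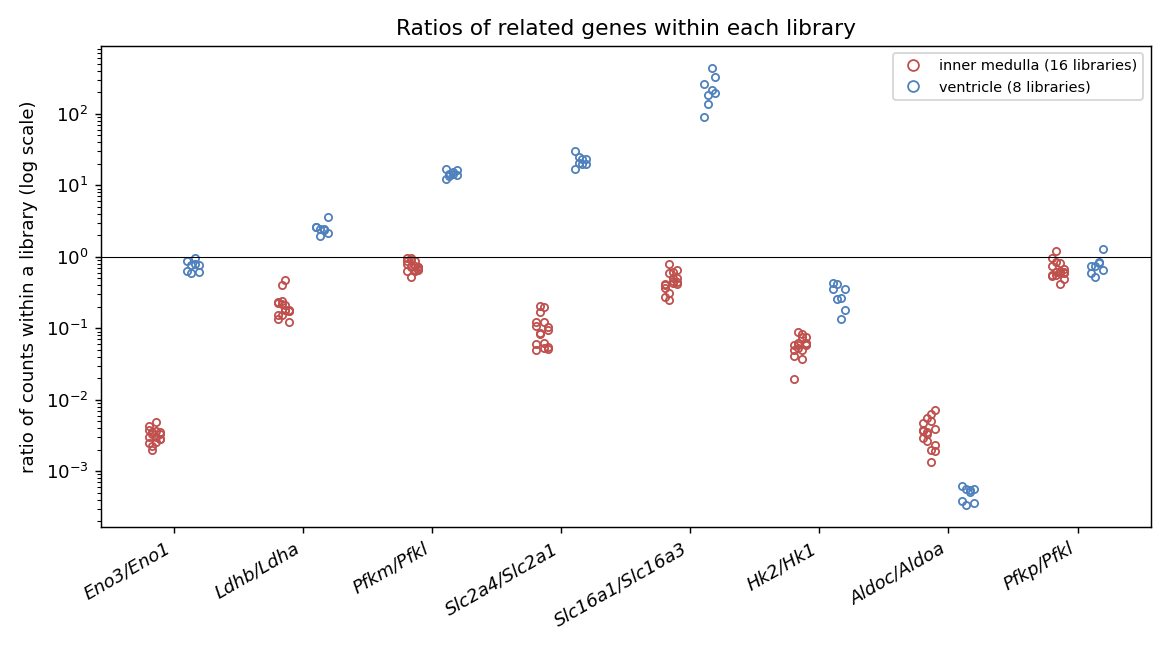
Ratio of counts of 8 gene pairs within each library (log scale), red for 16 inner medulla and blue for 8 ventricle libraries. The tissues do not overlap in 7 pairs, and Pfkp/Pfkl overlaps.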

How the data were processed

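Poly(A) RNA of 24 rat tissue samples was sequenced (stranded libraries, single-end 50 cycles, per the labels' protocols). The authors deposited 3 tables of expected counts per gene; per the submitters' processing notes the tools were bcl2fastq 2.19, Trimmomatic, Salmon and MultiQC, with build, annotation and settings not given in the sources used here. Multi-mapping reads are shared out by such estimates, but the pseudogene rows of Gapdh and Eno1 held at most 0.0139% and 0.00244% of their gene. Expected counts were rounded and tested with edgeR 4.0.16 in R 4.3.3 (TMM, filterByExpr with a minimum count of 10, quasi-likelihood test, Benjamini-Hochberg over all genes), with the labelled batch as a term. Interactions used 16 libraries with an intercept per table and batch, and the tissue comparison 8 high-salt libraries of 2 tables scaled together, without batch. DESeq2 1.42.0, other scalings and filters, no batch term, single batches, a replicate block and leave-outs were alternatives. The tests were checked on simulated data. The members and gene lists were chosen with earlier results of these data known. Named genes are members past the threshold, the 3 smallest p in each direction per treatment, isozyme pairs, the 2 factors and their 2 hydroxylases, and the 4 largest tissue folds in each direction. Same-numbered libraries deviated together in the tissue comparison (r 0.227 to 0.313, and 0.127 to 0.209 with batch removed), which counts as pairing. In the ventricle they did so only with batch left in (0.161 to 0.231, against -0.051 to 0.003 with batch removed). There the numbers do not pair the samples, and the block is only an alternative. The values printed come from fits without a replicate block, and the block's value stands beside a result where it changes the call or the count of calls. In the tissue comparison the block left 30 members called but moved their edgeR adjusted p. It was 3.54e-07 for Eno3 and 9.05e-05 for Slc16a3 with the block, against 2.72e-09 and 0.00021 without. No pair of replicates agreed within counting noise (36 pairs, chi-square per gene 20.3 to 104). Figures were drawn from these values.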

Additional observations from a re-analysis of the deposited data

Results flagged for a closer look

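Of 170 groups of 4 libraries tested for a value far from the other 3, 8 had one, and chance flags about 1 in 20. In normalised CPM, heart high-salt replicate 1 was high in Eno1 (778.5, the others 523.1 to 561.6) and Slc2a4 (474.7, the others 368.8 to 380.4), and heart low-salt replicate 1 was high in Pfkm (1117, the others 958.2 to 975.9). Kidney low-salt replicate 2 was high in Ldhb (277.8, the others 201.7 to 213.6) and Slc2a4 (18.24, the others 9.508 to 10.74), and kidney low-salt replicate 1 in Pfkl (196.6, the others 188.7 to 190). Kidney control replicate 4 was low in Ldhb (156.2, the others 266 to 280.1), and kidney control replicate 3 in Hif1a (232.5, the others 263.5 to 267.8). The low-salt response of Bnip3 differed between the tissues by the interaction test (log2 difference -1.145, edgeR adjusted p = 0.0497).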

How the results depend on the processing

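Genes called in the low-salt inner medulla were 454, and 1695 with DESeq2, 165 without the batch term, 0 in batch 1, 240 in batch 2 and 2 to 423 with 1 library left out; members called were 1, and 8, 0, 0, 0 and 0 to 0, also 0 with DESeq2's size factors. The members' median of -0.201 was -0.369 in batch 1 and -0.054 in batch 2. For aldosterone, genes called were 0, and 373 with DESeq2, 4 without a filter, 1 in batch 1 and 0 to 2 in leave-outs, and DESeq2 called 3 members. In the ventricle they were 8, and 303 with DESeq2, 85 without a filter, 1 without the batch term, 1 in each batch and 1 to 8 in leave-outs; members called were 0, and 7 with DESeq2 and 1 without a filter. For the difference between tissues in the low-salt response they were 161, and 821 with DESeq2, 14 without the batch term and 11 to 194 in leave-outs; members called were 1, and 4, 0 and 0 to 2, and 0 with upper quartile scaling. For aldosterone against low salt they were 10, and 657 with DESeq2, 52 without a filter, 0 without the batch term and 0 to 67 in leave-outs, and DESeq2 called 7 members. The tissue median of -1.452 was -1.268 with upper quartile scaling (8458 genes higher, 5928 lower), -0.557 with library totals, -1.613 in low-salt libraries and -1.542 to -1.294 in leave-outs. Eno1 lost its call with the replicate block too (adjusted p = 0.0864). Among the genes named, signs turned for Pkm (0.014, batch 1) and Hif1a (0.03, batch 1; leave-outs -0.068 to 0.011) under aldosterone, for Hif1a (0.131, batch 1; leave-outs -0.124 to 0.027) and Egln1 (0.019, batch 2; leave-outs -0.151 to 0.018) in the low-salt inner medulla, for Hif1a (-0.102) and Epas1 (0.013) in ventricle batch 1, and between tissues for Pfkp (leave-outs -0.059 to 0.171), for Pkm in low-salt libraries (-0.117) and with library totals for Pgam1 (0.558) and Pfkfb2 (0.531). The signs of Adm (0.442) and Ankrd37 (0.073) also turned in batch 2 of the low-salt inner medulla. Over the members tested, named or not, the 2 batches had opposite signs for 8 under aldosterone, 12 in the low-salt inner medulla and 14 in the ventricle. The causes were not tested. With the replicate block in place of batch, genes called were 52 in the low-salt inner medulla (members 0), 0 in the ventricle, 16 and 0 in the interactions (members 0 in both); no other count of calls changed by the block. The numbers do not pair the samples in the kidney treatments (r -0.044 to 0.291 for low salt, -0.045 to 0.38 for aldosterone, not every sample best with its own number). With 4 rats a group, differences under the spread between rats were not detectable.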

Other observations

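Pyruvate entry into mitochondria, the step after glycolysis, differed between tissues on high salt in the same scaled comparison: 11 of 12 genes tested (91.7%, against 36.7% of all genes) were higher in the ventricle and 1 (8.33%, against 41.1%), the kinase Pdk3, in the inner medulla (1.96 ± 0.19 log2, inner medulla over ventricle). The pyruvate dehydrogenase subunits Pdhb (-3.06 ± 0.09) and Dlat (-3.52 ± 0.10) were among the 11. Of 14 genes of gluconeogenesis and glycogen, 6 (42.9%) were higher in the inner medulla, led by p by the liver phosphorylase Pygl (4.65 ± 0.47), and 8 (57.1%) in the ventricle, led by the muscle phosphorylase Pygm (-10.97 ± 0.17) and the glycogen synthase Gys1 (-3.50 ± 0.07). With library totals alone, a setting added after the data were seen, the first list again had 11 and 1. The second had 8 of 13 higher in the ventricle and 5 in the inner medulla. Its gene Pc was left out of this count, so the fall from 14 genes to 13 is not a result of the scaling. No gene of either list passed the test in a treatment comparison.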
